A study of Mus musculus with 12 samples.

Results

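The genes described here are the MAP kinase phosphatases Dusp1, Dusp2, Dusp4, Dusp5, Dusp6, Dusp10 and Dusp16, the Sprouty genes Spry2 and Spry4, and the Sprouty-related gene Spred1. They were taken by symbol from a table of 55487 mouse genes, which held all 10 of them, and 9 passed the filter on low counts that left 12897 genes to test. Spry4 was the member that did not. The family was chosen by gene function, but with the fold changes of Dusp1 between the constructs already known. Those values of Dusp1 are therefore given as a description without a test. They are left out of the counts for the construct, except in the account of how the results depend on the processing. Dusp1 stays in the counts for TGFβ and for the interaction, although the interaction is the difference between those known fold changes. No threshold on measured values was used.

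MAP kinases are switched on by phosphorylation of a threonine and a tyrosine, and dual-specificity phosphatases remove both. Dusp1, Dusp2, Dusp4 and Dusp5 are nuclear and are made within minutes to hours of a stimulus, Dusp6 is cytoplasmic and removes phosphate from ERK, and Dusp10 and Dusp16 act mainly on JNK and p38. Sprouty and Spred proteins act further up, between growth factor receptors, RAS and RAF. Several of these genes are themselves switched on by ERK, so their messengers serve as a readout of ERK output as well as a brake on it.

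Messenger RNA was measured in im_TEC, a conditionally immortalised line of mouse kidney tubular epithelial cells that carries the SV40 large T antigen. Cells labelled Nnmt-OE carried a construct for Nnmt, the methyltransferase that uses S-adenosylmethionine to methylate nicotinamide, and mock cells carried a mock construct, both after puromycin selection. The 4 groups of 3 libraries were Nnmt-OE with TGFβ (10 ng/mL for 48 h), mock with TGFβ at the same dose and time, untreated Nnmt-OE and untreated mock. All groups shared a maintenance medium with serum, insulin, hydrocortisone and epidermal growth factor, and all were kept without interferon γ at the restrictive temperature before seeding to lower T antigen activity. The labels do not say whether replicates were separate cultures, and the p-values then rest on a spread among libraries that may be technical. In bulk RNA, a change in the share of cells that express a gene and a change in RNA per cell cannot be told apart.

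Libraries held 4733846 to 7247413 reads in genes. Nnmt, which checks the labels, stood at 27.5 ± 5.79 CPM in Nnmt-OE with TGFβ against 30.3 ± 2.76 CPM in mock with TGFβ, and at 25.2 ± 2.87 CPM in untreated Nnmt-OE against 20.2 ± 3.83 CPM in untreated mock (CPM is counts scaled to a common library size, mean ± SD, n = 3 each). Neither contrast passed the test (edgeR adjusted p = 0.998 with TGFβ and 0.897 without). Tags come from the 3′ ends of transcripts and the 3′ end of the construct is not described, so this check may not see it, and the groups are called labelled Nnmt-OE. Of 13 markers of kidney tubule epithelium, Pax8 (230 to 253 CPM as group means) and Aqp1 (642 to 1120 CPM) were plentiful, while Epcam and Cdh1 had no read in any of the 12 libraries. All 4 endothelial markers were at 0, and the 7 fibroblast markers summed to 10.7 to 16.1 CPM in labelled Nnmt-OE with TGFβ, 7.94 to 13.7 CPM in mock with TGFβ, 1.61 to 8.03 CPM in untreated labelled Nnmt-OE and 3.37 to 6.53 CPM in untreated mock. The 4 leukocyte markers summed to at most 13.3 CPM, with Ptprc at 2 reads in all. The 4 podocyte markers summed to 68.3 to 88 CPM, nearly all of it Podxl. Mock replicate 1, mock with TGFβ replicate 3 and labelled Nnmt-OE with TGFβ replicate 3 stood apart on the principal components (15.9, 13 and 11.2% of the variance for the leading 3). Library codes of construct and mock groups do not interleave, and within each construct neither do those of treated and untreated groups, so handling cannot be told apart from construct or TGFβ.

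The stretches before the starts of Dusp1 and Dusp6 are shown because Dusp6 was the member called for TGFβ and Dusp1 was the most variable of the better measured members. The sequences are the 250 bases upstream of the RefSeq start, 5′ to 3′ on the strand of the gene, from RefSeq on GRCm38.p6 (8 of the 10 genes had an entry). Capitals mark every match, on either strand, to the cyclic AMP response element TGACGTCA or its core TGACG. The Dusp1 stretch lies at chr17:26508473-26508722 on the minus strand and the Dusp6 stretch at chr10:99262981-99263230 on the plus strand.
Dusp1: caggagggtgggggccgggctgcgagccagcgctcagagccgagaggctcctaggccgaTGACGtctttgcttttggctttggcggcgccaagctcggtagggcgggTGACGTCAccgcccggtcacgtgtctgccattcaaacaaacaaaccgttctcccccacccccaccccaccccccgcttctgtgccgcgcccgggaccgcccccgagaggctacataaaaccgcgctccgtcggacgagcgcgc
Dusp6: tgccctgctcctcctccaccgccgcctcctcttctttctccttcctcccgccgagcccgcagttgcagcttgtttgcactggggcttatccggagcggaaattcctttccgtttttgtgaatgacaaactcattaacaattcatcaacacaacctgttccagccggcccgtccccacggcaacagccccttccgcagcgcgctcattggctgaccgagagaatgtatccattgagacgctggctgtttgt

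The Dusp1 stretch held the full element beginning 143 bases before the start, and the core began at 191, 143 and 140 bases before the start, the last of these being its reverse complement within the full element. Of 32851 promoter entries of the same length, 1.55% held the full element and 17.8% the core. Among the 8 family genes with an entry, only Dusp1 held the full element, and the core was also found before Dusp5 and Dusp16. The Dusp6 stretch held none of the other motifs searched, which were the AP-1 site TGANTCA (6.75% of entries), the ETS site CCGGAA (12%) and the SMAD box CAGAC (42.2%), all on both strands. The SMAD box occurred before Dusp1 and Dusp2. A match describes letters in a window and not a bound site.

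Levels differed widely within the family. A 3′ tag library gives about 1 tag per transcript, so CPM can be set side by side between genes without a length correction. Over the 12 libraries Dusp6 was the most abundant at a mean of 136 CPM (93.5 to 189), above every value of any other member. Dusp16 (55.7, range 40.4 to 63.4) and Spred1 (55, range 46.5 to 65.6) came next and overlapped each other. Dusp1 followed at 36 CPM (16.7 to 56.6), and its range overlapped those of Dusp16 and Spred1. It varied most among the members with at least 5 CPM (SD of log2(CPM + 1) 0.631). Spry2 (14.5), Dusp10 (12.4) and Dusp5 (9.95) overlapped one another, with ranges of 10.9 to 22.5, 7.3 to 25.8 and 2.77 to 18.9 CPM. Dusp2 (2.84) and Dusp4 (2.48) were near the limit of measurement and overlapped.

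**Figure D1:**
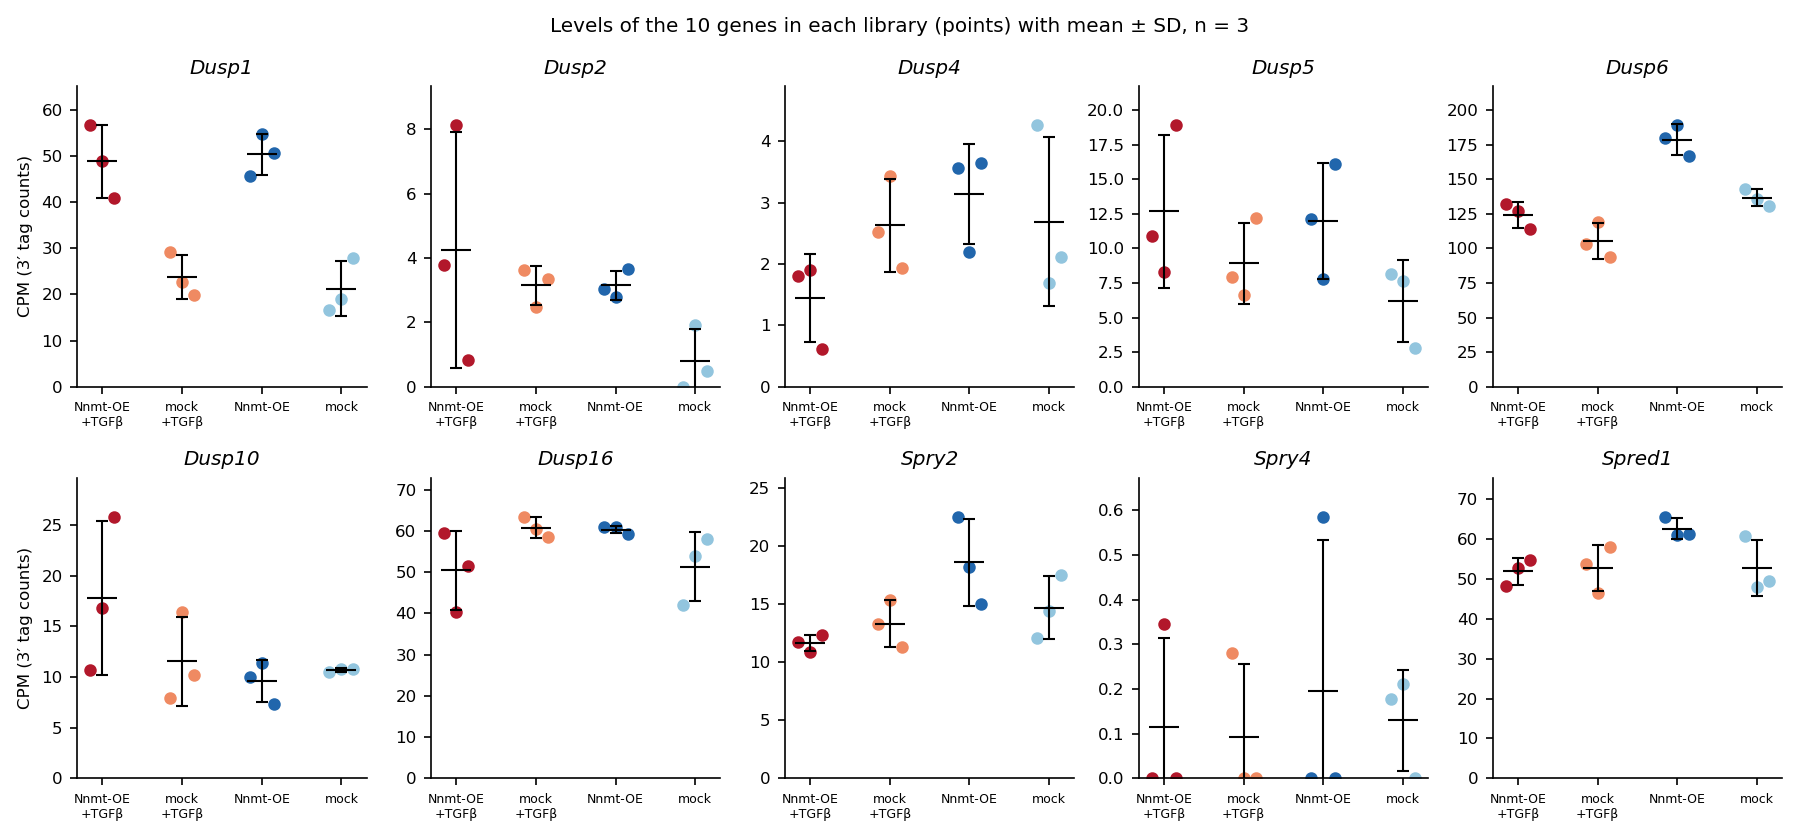
Level of each of the 10 genes in CPM (vertical axes, each starting at 0) in the 4 groups, with 1 point per library and the mean ± SD of 3 as a bar. Dusp1 separates by construct, with the 6 labelled Nnmt-OE libraries at 40.8 to 56.6 CPM and the 6 mock libraries at 16.7 to 29.1 CPM, whereas Dusp6 is lowest in mock with TGFβ and highest in untreated labelled Nnmt-OE.

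Among the nuclear phosphatases, Dusp1, which acts on p38, JNK and ERK, was higher in both labelled Nnmt-OE groups and differed little with TGFβ. It measured 56.6, 48.9 and 40.8 CPM in labelled Nnmt-OE with TGFβ, against 29.1, 22.7 and 19.8 CPM in mock with TGFβ. Without TGFβ it measured 45.7, 54.6 and 50.6 CPM in labelled Nnmt-OE, against 16.7, 19.1 and 27.9 CPM in mock. Every labelled Nnmt-OE library lay above every mock library, across both treatments. Over both treatments the construct fold was 2.2 (95% interval 1.8 to 2.67), with 2.04 with TGFβ (1.55 to 2.69) and 2.36 without (1.78 to 3.13).

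TGFβ gave Dusp1 a fold of 0.971 in labelled Nnmt-OE (0.743 to 1.27, edgeR adjusted p = 0.968) and 1.12 in mock (0.844 to 1.5, edgeR adjusted p = 0.83), and the interaction of construct and TGFβ was -0.21 ± 0.28 (log2 ± SE, edgeR adjusted p = 0.999). In the GENCODE M21 annotation the Dusp1 model spans 56539 bases, against 2882 in RefSeq, and overlaps Ergic1 and Gm8225 on the opposite strand and 2 small models within it on the same strand. The same-strand pair had 0 reads in all libraries and Gm8225 had 1. How the counts treated strand is not stated, so reads of Dusp1 and Ergic1 may be mixed. Ergic1 had a construct fold of 1.07 over both treatments (0.961 to 1.19, edgeR adjusted p = 0.89) and rose with TGFβ over both constructs by a fold of 1.22 (1.09 to 1.35, edgeR adjusted p = 0.0184).

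Dusp2, a phosphatase of ERK best known from activated immune cells, was rare, and its values rest on few reads. It had 23, 47 and 4 reads in labelled Nnmt-OE with TGFβ and 26, 18 and 19 reads in mock with TGFβ. It had 17, 19 and 20 reads in untreated labelled Nnmt-OE, against 0, 9 and 3 reads in untreated mock. Untreated mock was thus low, as was replicate 3 of labelled Nnmt-OE with TGFβ, and the other 3 groups overlapped one another. Against untreated mock, both the construct and TGFβ gave a fold of 4.05 (intervals 1.19 to 13.7 and 1.2 to 13.7), and neither passed (edgeR adjusted p = 0.813 and 0.321). These comparisons share the 3 untreated mock libraries.

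Dusp5, a nuclear phosphatase specific to ERK, was higher on average with the construct but its groups overlapped. It measured 10.9, 8.29 and 18.9 CPM in labelled Nnmt-OE with TGFβ and 7.97, 6.61 and 12.2 CPM in mock with TGFβ. Without TGFβ it measured 12.1, 7.76 and 16.1 CPM in labelled Nnmt-OE and 8.16, 7.62 and 2.77 CPM in mock. Over both treatments the construct fold was 1.66 (1.13 to 2.44), which did not pass over all genes (edgeR adjusted p = 0.69). Dusp4, a nuclear phosphatase of ERK and JNK, had 3 to 25 reads per library, and none of its contrasts passed (edgeR adjusted p from 0.659 to 0.999). In labelled Nnmt-OE its 3 values with TGFβ, 1.81, 1.9 and 0.624 CPM, lay below the untreated 3.57, 2.2 and 3.65 CPM.

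Dusp6, the cytoplasmic ERK phosphatase and a direct target of ERK signalling, fell with TGFβ. It measured 132, 127 and 114 CPM in labelled Nnmt-OE with TGFβ, against 180, 189 and 167 CPM in untreated labelled Nnmt-OE. In mock it measured 103, 119 and 93.5 CPM with TGFβ, against 143, 136 and 131 CPM untreated. Within each construct the treated and untreated libraries did not overlap. The fold with TGFβ was 0.696 in labelled Nnmt-OE (0.597 to 0.812, edgeR adjusted p = 0.00539) and 0.772 in mock (0.661 to 0.902, edgeR adjusted p = 0.0837), and over both constructs 0.733 (0.657 to 0.818, edgeR adjusted p = 0.00016).

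Markers of tubule epithelium moved with TGFβ as well. The 13 summed to 1580 to 1730 CPM in labelled Nnmt-OE with TGFβ against 2030 to 2070 CPM untreated, and to 1530 to 1560 CPM in mock with TGFβ against 1710 to 2020 CPM untreated. Most of this fall in the sum was that of Aqp1. It averaged 710 CPM in labelled Nnmt-OE with TGFβ against 1120 CPM untreated, and 642 CPM in mock with TGFβ against 933 CPM untreated. Of the 8 that were tested, over both constructs 2 fell and 2 rose (5.08% of all genes called, 2.6% lower). The water channel gene Aqp1 (-0.60 ± 0.06, edgeR adjusted p = 8.98e-10) and the cadherin gene Cdh16 (-0.63 ± 0.09, edgeR adjusted p = 9.94e-06) fell. Krt8 and the injury marker Havcr1 rose (log2 ± SE, 0.38 ± 0.09 and 0.84 ± 0.15, edgeR adjusted p = 0.00766 and 0.000275 in that order). Their part in the Dusp6 result was not tested.

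The fall of Dusp6 in labelled Nnmt-OE passed in 11 of 12 fits that left out 1 library, the exception being without labelled Nnmt-OE with TGFβ replicate 3 (edgeR adjusted p = 0.0726), and the pooled fall in 12 of 12. The mock fall, which missed the threshold, was called by DESeq2 (adjusted p = 0.0426). The difference between the constructs in this response was -0.15 ± 0.16 (log2 ± SE, edgeR adjusted p = 0.999), so a different fall in the 2 constructs was not shown. Without the 3 libraries that stand apart, the pooled log2 change was -0.36 against -0.45 with them, and it still passed (edgeR adjusted p = 0.00179).

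For the construct, Dusp6 did not pass in edgeR. Labelled Nnmt-OE libraries lay above mock libraries without TGFβ with no overlap, a fold of 1.31 (1.13 to 1.53, edgeR adjusted p = 0.718). With TGFβ the fold was 1.18 (1.01 to 1.38, edgeR adjusted p = 0.998) and the libraries overlapped. The fold over both treatments was 1.25 (1.12 to 1.39), which missed the threshold in edgeR (adjusted p = 0.123) and passed in DESeq2 (adjusted p = 0.0256). The number of Dusp1 reads per 100 Dusp6 reads, which needs no scaling between libraries, was 42.8, 38.4 and 35.7 in labelled Nnmt-OE with TGFβ, against 28.3, 19 and 21.1 in mock with TGFβ. It was 25.3, 28.8 and 30.2 in untreated labelled Nnmt-OE, against 11.7, 14 and 21.3 in untreated mock. The 3 libraries with both construct and TGFβ lay above the other 9, and the values of untreated mock were the lowest on average but overlapped those of mock with TGFβ. This order follows from the higher Dusp1 with the construct and the lower Dusp6 with TGFβ given above. It is therefore no separate result and shows no joint effect of construct and TGFβ.

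**Figure D2:**
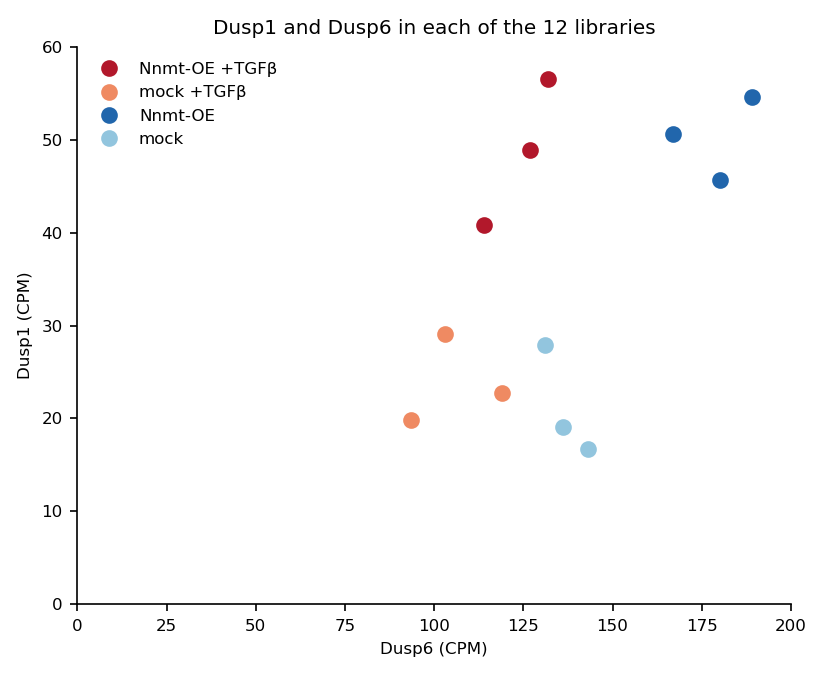
Dusp1 (vertical axis, CPM) against Dusp6 (horizontal axis, CPM), with 1 point for each of the 12 libraries coloured by group. Labelled Nnmt-OE libraries lie higher (40.8 to 56.6 CPM of Dusp1) than mock libraries (16.7 to 29.1 CPM), and within each construct the TGFβ libraries lie to the left of the untreated ones on the Dusp6 axis.

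The phosphatases of JNK and p38 did not pass in any contrast. Dusp10 measured 10.7, 16.8 and 25.8 CPM in labelled Nnmt-OE with TGFβ, against 9.99, 11.4 and 7.3 CPM in untreated labelled Nnmt-OE. In mock it measured 7.97, 16.4 and 10.2 CPM with TGFβ and 10.5, 10.8 and 10.8 CPM untreated. The treated values were scattered in both constructs, and the fold with TGFβ in labelled Nnmt-OE was 1.84 (1.17 to 2.9, edgeR adjusted p = 0.222). Dusp16 measured 59.4, 40.4 and 51.4 CPM in labelled Nnmt-OE with TGFβ and 63.4, 60.4 and 58.4 CPM in mock with TGFβ. Without TGFβ it measured 60.8, 60.8 and 59.2 CPM in labelled Nnmt-OE and 42, 53.8 and 58.1 CPM in mock. Mock with TGFβ and untreated labelled Nnmt-OE were thus tight and the other 2 groups were more scattered, and the interaction was -0.50 ± 0.22 (log2 ± SE), which did not pass (edgeR adjusted p = 0.999).

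Spry2, which restrains growth factor receptor signalling to RAS and ERK, measured 11.7, 10.9 and 12.3 CPM in labelled Nnmt-OE with TGFβ, against 22.5, 18.2 and 15 CPM in untreated labelled Nnmt-OE. Those groups did not overlap, but the fold of 0.627 (0.428 to 0.919) did not pass over all genes (edgeR adjusted p = 0.289). In mock it measured 13.3, 15.3 and 11.3 CPM with TGFβ and 12.1, 14.4 and 17.5 CPM untreated, which overlapped. Spred1, which brings the RAS inactivator neurofibromin to the membrane, was the steadiest member, with 48.2, 52.7 and 54.7 CPM in labelled Nnmt-OE with TGFβ and 53.7, 46.5 and 58.1 CPM in mock with TGFβ. Untreated, it had 65.6, 60.9 and 61.3 CPM in labelled Nnmt-OE and 60.7, 47.9 and 49.6 CPM in mock, and the TGFβ fold in labelled Nnmt-OE was 0.828 (0.673 to 1.02, edgeR adjusted p = 0.515). Spry4, the remaining Sprouty gene, had 10 reads in the 12 libraries, with 0, 2 and 0 in labelled Nnmt-OE with TGFβ, 2, 0 and 0 in mock with TGFβ, 0, 4 and 0 in untreated labelled Nnmt-OE and 1, 1 and 0 in untreated mock. A count of 0 allows a level of up to 0.414 to 0.634 CPM, depending on the library (3 reads, counting error only), so no difference in Spry4 was detectable at this depth.

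Counted over the 8 tested members other than Dusp1, edgeR called 0 for the construct without TGFβ (0.0388% of all genes called), 0 with TGFβ (0.0233%) and 0 over both treatments (0.0698%). At an unadjusted p under 0.05 there were 3 without TGFβ (Dusp2, Dusp5 and Dusp6, 5.84% of all genes), 1 with TGFβ (Dusp6, 4.46%) and, over both treatments, 3 (Dusp2, Dusp5 and Dusp6, 6.23%). DESeq2 called 0, 0 and 1 of them in the same order, the 1 being Dusp6 among the 6 to which it gave an adjusted p. The percentages above are those of edgeR, and of all genes DESeq2 called 5, 3 and 27 in that order. Dusp6 was the 1 of 9 called for TGFβ in labelled Nnmt-OE (1.4% of all genes called, 0.744% lower) and over both constructs (5.08% called, 2.6% lower). Those with an unadjusted p under 0.05 were 3 in labelled Nnmt-OE (Dusp6, Dusp10 and Spry2). Over both constructs they were 4 (Dusp2, Dusp6, Dusp10 and Spry2). The share of all genes under this unadjusted threshold is not given for either contrast, so these counts are a description and show no response of the family. In mock 0 of 9 were called in edgeR (1.43% of all genes) and 2, Dusp2 and Dusp6, had an unadjusted p under 0.05 (11.9% of all genes). The interaction called 0 of 9 members and 0% of all genes in edgeR and in DESeq2, while Dusp16 had an unadjusted p under 0.05 in edgeR (3.88% of all genes).

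Separation of the groups went further than the calls. Without TGFβ, 4 of these 8 members (Dusp2, Dusp6, Dusp16 and Spred1) were higher in all labelled Nnmt-OE libraries than in all mock libraries (5.64% of all genes). With TGFβ none of the 8 lay higher in this way and Dusp4 lay lower (10.2% of all genes in either direction). With TGFβ in labelled Nnmt-OE, 4 of 9 lay lower than untreated without overlap, Dusp4, Dusp6, Spry2 and Spred1 (8.89% of all genes), and in mock Dusp2 and Dusp16 lay higher and Dusp6 lower (16.4% in either direction). The median log2 construct difference of the 8 was 0.11 with TGFβ and 0.29 without, beside medians of 0.00 over all genes. Since the members were chosen with earlier results known, these counts are a description. Each group also enters both a construct and a TGFβ contrast, so the separations are not independent of one another. Some were narrow. Without TGFβ the lowest labelled Nnmt-OE library stood at 60.9 against 60.7 CPM in the highest mock library for Spred1. For Dusp16 these values were 59.2 and 58.1 CPM.

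**Figure D3:**
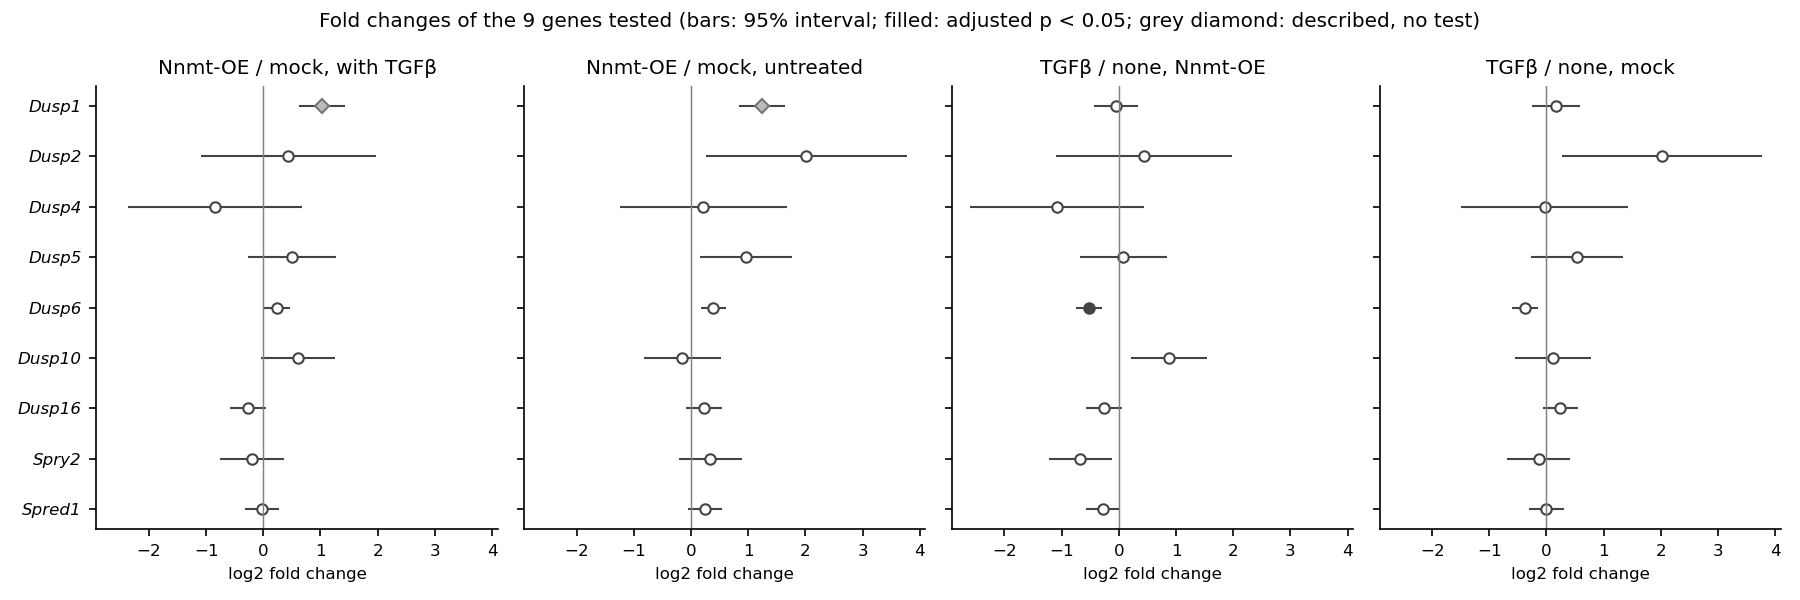
Log2 fold changes (horizontal axes) of the 9 tested genes in the 4 pairwise contrasts, with 95% intervals as bars and filled points for an adjusted p under 0.05 over all genes. Dusp6 is filled, to the left of 0, for TGFβ in labelled Nnmt-OE (0.696-fold), and the construct values of Dusp1 (2.04-fold with TGFβ and 2.36-fold without) are grey diamonds, drawn as a description with no test.

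Other members of these families were mostly level. Of 16 further phosphatases and Sprouty or Spred genes, 14 were tested and 13 did not pass in any contrast. The exception was Dusp22, a phosphatase that acts on JNK pathway and T cell kinases. With TGFβ over both constructs, where 5.08% of all genes were called, it fell by 0.48 ± 0.11 on the log2 scale (edgeR adjusted p = 0.00403). It averaged 44.5 ± 4.57 CPM in labelled Nnmt-OE with TGFβ against 60.9 ± 5.1 CPM untreated, and 45.9 ± 5.53 CPM in mock with TGFβ against 64.6 ± 6.87 CPM untreated (SD, n = 3 each). Dusp9, a cytoplasmic relative of Dusp6, stood at 0.99 ± 0.35 for TGFβ over both constructs without passing (log2 ± SE, edgeR adjusted p = 0.102). Dusp8, which acts on JNK and p38, stood at 0.28 ± 0.12 for the construct over both treatments (edgeR adjusted p = 0.724), and Dusp18 at 0.33 ± 0.14 for the construct without TGFβ (edgeR adjusted p = 0.813).

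The kinase cascades that these proteins restrain showed 1 call, for TGFβ over both constructs, where 5.08% of all genes were called. All 29 genes from receptor to ERK were tested and none passed in any contrast. Those with the smallest p were Hras at 0.37 for the construct with TGFβ (log2, edgeR adjusted p = 0.892), the phosphatase gene Ptpn11 at 0.24 for TGFβ over both constructs (edgeR adjusted p = 0.0806), the receptor gene Met at -0.21 for the construct over both treatments (edgeR adjusted p = 0.563) and Fgfr2 at -0.23 for TGFβ over both constructs (edgeR adjusted p = 0.147). Of 19 JNK and p38 pathway genes 16 were tested, and Map3k1, a kinase that starts the JNK cascade, fell with TGFβ over both constructs by 0.53 ± 0.12 on the log2 scale (edgeR adjusted p = 0.00421). Mapk14, the gene of p38α, stood at -0.30 ± 0.12 in that contrast (edgeR adjusted p = 0.182), and the p38 substrate genes Mapkapk2 and Mapkapk3 did not pass.

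Genes that ERK is known to switch on were counted as well. This list too was chosen with earlier results of these data known, so its counts and medians are a description. Of 17 on the list 14 were tested, and with TGFβ over both constructs 2 fell and 1 rose (5.08% of all genes called). Ccnd1, the gene of cyclin D1, averaged 544 ± 40.6 CPM in labelled Nnmt-OE with TGFβ against 691 ± 30.4 CPM untreated, and 531 ± 16.8 CPM in mock with TGFβ against 635 ± 37.4 CPM untreated (SD, n = 3 each, pooled log2 change -0.30 ± 0.06 SE, edgeR adjusted p = 0.000592). Egr1, a zinc-finger transcription factor, had a pooled log2 change with TGFβ of -0.61 ± 0.08 (edgeR adjusted p = 2.25e-07). Ier3, a survival gene, rose by 0.31 ± 0.09 (edgeR adjusted p = 0.0238), a call kept in 7 of 12 fits without 1 library and lost without the 3 libraries that stand apart (edgeR adjusted p = 0.0781). For the construct over both treatments 2 of the 14 rose, Egr1 and Ier3 (0.0698% of all genes called), and Hbegf stood at 0.27 ± 0.09 (edgeR adjusted p = 0.494). The median log2 change of the 14 was -0.16 for TGFβ and 0.24 for the construct, against 0.00 over all genes for each.

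Dusp1 belongs to the immediate-early genes, which are transcribed within minutes of a stimulus, and 6 others of this class rose with the construct while 19 did not pass. Of 25 tested among 28 on the list, which shares Egr1, Ier3 and Myc with the ERK output list, these 6 were called over both treatments (0.0698% of all genes called) and 22 had positive values, with a median log2 change of 0.38. The list was chosen with earlier results of these data known, so its count is a description. Egr1 averaged 167 ± 19.8 CPM in labelled Nnmt-OE with TGFβ against 77.5 ± 2.62 CPM in mock with TGFβ, and 266 ± 13.7 CPM in untreated labelled Nnmt-OE against 113 ± 7.29 CPM in untreated mock (SD, n = 3 each). Ier3 rose by 0.64 ± 0.09, Trib1, a pseudokinase gene, by 0.55 ± 0.09 and the matricellular gene Ccn1 by 0.38 ± 0.06 (log2 ± SE, edgeR adjusted p = 1.91e-05, 0.000916 and 0.00021 in that order). The AP-1 subunit genes Junb (0.43 ± 0.09, edgeR adjusted p = 0.028) and Jun (0.38 ± 0.08, edgeR adjusted p = 0.0424) each kept the call in 3 of 12 fits without 1 library, and both lost it without the 3 libraries that stand apart (edgeR adjusted p = 0.234 and 0.341).

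Leaving Dusp1 aside, 8 genes were called for the construct over both treatments, these 6 with Fstl1 and Cxcl1, the last pair named here after their values were seen. The summed level of the 25 genes was 3296.9 to 3407.9 CPM in labelled Nnmt-OE with TGFβ against 2687.3 to 2793.2 CPM in mock with TGFβ, and 3165.4 to 3282.7 CPM in untreated labelled Nnmt-OE against 2499.4 to 2723.2 CPM in untreated mock. Such genes respond to handling of cells as well as to growth factors, and a part of handling in the Dusp1 difference was not tested. Mitochondrial transcripts, a sign of RNA quality, made up 6.046 to 6.418% of reads in labelled Nnmt-OE with TGFβ against 6.449 to 6.623% in mock with TGFβ, and 6.627 to 6.898% in untreated labelled Nnmt-OE against 6.128 to 7.305% in untreated mock. Their part in the result was not tested.

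With TGFβ the same class split. Of the 25, 4 rose and 4 fell over both constructs (5.08% of all genes called, 2.6% lower). Gadd45b, a stress sensor gene (0.79 ± 0.12), and Ccn1 (0.43 ± 0.06) rose with the smallest p (log2 ± SE, edgeR adjusted p = 3.01e-05 and 1.12e-06), as did Ier3 and Ier5 (0.24 ± 0.07, edgeR adjusted p = 0.0234), and the Ier5 call held in 7 of 12 fits that left out 1 library. Egr1, Klf4 (-0.59 ± 0.09, edgeR adjusted p = 3.83e-05), Trib1 (-0.39 ± 0.09, edgeR adjusted p = 0.00479) and Btg2 (-0.28 ± 0.08, edgeR adjusted p = 0.0309) fell, Btg2 keeping its call in 5 of 12 such fits and losing it without the 3 libraries that stand apart (edgeR adjusted p = 0.0567). Dusp1, at 0.06 ± 0.14, was in neither group. In labelled Nnmt-OE the Trib1 means were 80.4 CPM with TGFβ and 125 CPM untreated. In mock the Trib1 means were 64.8 and 72.1 CPM, and the libraries overlapped. The interaction called 0 of the 25 genes, so a different fall of Trib1 between the constructs was not shown.

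**Figure D4:**
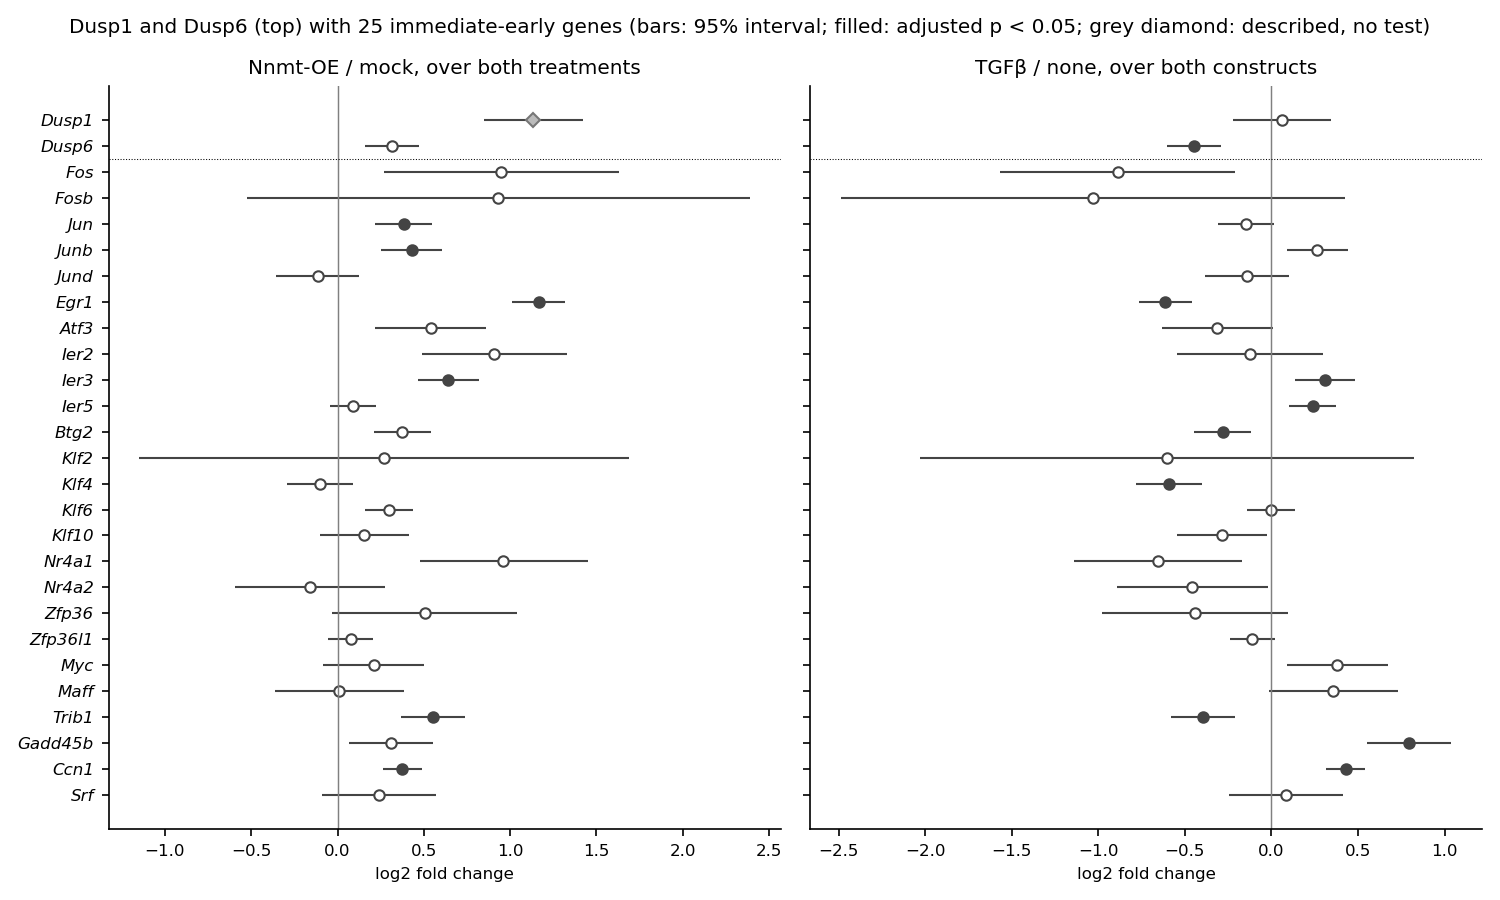
Log2 fold changes (horizontal axes) for the construct over both treatments (left panel) and for TGFβ over both constructs (right panel), with 95% intervals, for Dusp1 and Dusp6 above the dotted line and 25 immediate-early genes under it. Filled points passed an adjusted p of 0.05 over all genes: 6 of the 25 to the right of 0 for the construct, where Dusp1 is a grey diamond drawn with no test, and Dusp6 with 4 of the 25 to the left of 0 for TGFβ, where 4 others lie to the right.

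Dusp1 is also known as a glucocorticoid target, and hydrocortisone was in the medium of all groups. None of 12 glucocorticoid genes passed for the construct in any contrast, and their median log2 change over both treatments was 0.08. The smallest p for the construct was that of Errfi1, a feedback inhibitor of the EGF receptor, at 0.59 ± 0.14 with TGFβ (log2 ± SE, edgeR adjusted p = 0.376). For TGFβ, Cebpb stood at -0.34 ± 0.15 in mock (edgeR adjusted p = 0.321) and Klf9 at -0.15 ± 0.07 over both constructs (edgeR adjusted p = 0.224). The receptor gene Nr3c1 fell with TGFβ over both constructs by 0.34 ± 0.09 on the log2 scale (edgeR adjusted p = 0.016), a call kept in 10 of 12 fits without 1 library and lost without the 3 libraries that stand apart (edgeR adjusted p = 0.082). A part of glucocorticoid signalling in the Dusp1 difference was not tested.

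The genes whose pattern over the 12 libraries was most like that of a member were found among 9119 genes at 10 CPM or more, by the root mean square difference of centred log2(CPM + 1). For Dusp1 they were Ier2 (0.315), Gm8162 (0.352) and Rbx1-ps (0.354), against a spread of Dusp1 itself of 0.631. Ier2, another immediate-early gene, averaged 18.3 ± 1.78 CPM in labelled Nnmt-OE with TGFβ against 10.2 ± 1.1 CPM in mock with TGFβ, and 21 ± 6.8 CPM in untreated labelled Nnmt-OE against 10.6 ± 4.11 CPM in untreated mock (SD, n = 3 each), and missed the threshold for the construct over both treatments (edgeR adjusted p = 0.0813). Since Ier2 is named here for its likeness to Dusp1, a difference between the constructs is built into that choice. Its values are a description. The nearest genes of the other members are given next. For Dusp5 the nearest genes were Mthfd2l (0.371), Thop1 (0.391) and Pdlim1 (0.397), against a spread of 0.62. For Dusp10 they were Ptcd3 (0.259), Abcg2 (0.276) and Rtp4 (0.283), against a spread of 0.463. Counts of Rbx1-ps, which its symbol marks as a pseudogene, may share reads with its parent gene.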

How the data were processed

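RNA was read with QuantSeq 3′ tag libraries. The authors deposited raw counts of reads per gene for 12 libraries, made with STAR and HTSeq per the submitters' processing notes, which give no versions and name the human build GRCh38, although the identifiers are mouse Ensembl ones. Neither the mouse build nor the annotation nor the treatment of strand is stated. Reads outside genes (26.4 to 28.79%) and ambiguous reads (0.6034 to 0.679%) stayed out of library sizes. Symbols from GENCODE M21 matched 99.4% of identifiers.

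From these counts, filterByExpr (minimum count 10, total 15) kept 12897 genes. All 12 libraries, grouped by title, entered 1 fit in edgeR 4.0.16 (R 4.3.3) with TMM factors of 0.9815 to 1.011, and were tested by the two-sided robust quasi-likelihood F test with Benjamini-Hochberg adjustment over all genes at 0.05. Contrasts were the construct and TGFβ at each level of the other, their means over both levels, and the interaction. Intervals are 95% intervals of the model. CPM were scaled by TMM. Replicate pairs of a group differed by 4.94 to 18.2 times sampling noise (chi-square per degree of freedom), so none was merged.

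Alternatives were DESeq2 1.42.0, limma-voom 3.58.1, RLE factors, plain library totals, no filter or a stricter one (1 CPM in 3 libraries and 50 reads), only the groups compared, a replicate block, each library left out, and 3 libraries left out together. Members and gene lists were chosen with earlier results of these data known. All members are named, with the 4 genes of smallest p and any called gene of each list. For likeness, the 3 nearest genes were taken for the 3 members of widest spread at 5 CPM or more. The intervals and SEs of the model include the spread between libraries, and limits set from a count of 0 cover counting error only.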

Additional observations from a re-analysis of the deposited data

How the results depend on the processing

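The replicate numbers did not pair the libraries: deviations of same-numbered libraries correlated at -0.21 to 0.079, and with the replicate block 1 member stayed called for the construct without TGFβ, with TGFβ and over both treatments, 1 for TGFβ in labelled Nnmt-OE and over both constructs, and 0 elsewhere. Under DESeq2 the members called went to 1 for TGFβ in mock (0 in edgeR) and to 2 for the construct over both treatments (1 in edgeR), Dusp6 being added each time. Leaving out 1 library gave 0 to 1 members for the construct with TGFβ and 0 to 1 for TGFβ in labelled Nnmt-OE. The member counted for the construct in edgeR is Dusp1, whose values were known, so its count is no test.
Other alternatives kept each count of members called. No result that had passed reversed. The reversals below are log2 changes that never passed, mostly near 0, and their cause was not tested. For Spred1 with TGFβ in mock the sign turned under RLE scaling (0.0004312), library totals (0.002949), no filter (0.004279), the stricter filter (0.002014), the replicate block (0.0004504) and without the 3 libraries that stand apart (0.04119). For Dusp4 in that contrast it turned under limma-voom (0.04354), the block (0.01485) and without the 3 libraries (0.6335). Without those 3 libraries it also turned for Spred1, construct with TGFβ (0.007847), for Dusp1 (0.07004) and Dusp5 (-0.3113), TGFβ in labelled Nnmt-OE, and for Dusp4 (0.01082) and Spry2 (-0.063), construct over both treatments. Leaving out 1 library gave these ranges across 0. For TGFβ in labelled Nnmt-OE they were -0.1621 to 0.07382 (Dusp1), -0.4212 to 0.9195 (Dusp2) and -0.3088 to 0.3491 (Dusp5). For TGFβ in mock they were -3.685e-05 to 0.4279 (Dusp1), -0.2662 to 0.463 (Dusp4), -0.2315 to 0.3259 (Dusp10), -0.2591 to 0.01602 (Spry2) and -0.06972 to 0.1145 (Spred1). For TGFβ over both constructs they were -0.02144 to 0.1926 (Dusp1) and -0.07403 to 0.06255 (Dusp16). For the construct they were -0.4232 to 0.914 (Dusp2) and -0.1094 to 0.04514 (Spred1) with TGFβ, -0.02163 to 0.6984 (Dusp4) and -0.3053 to 0.007074 (Dusp10) without, and -0.08983 to 0.04944 (Dusp16) and -0.01012 to 0.1461 (Spry2) over both. Of all genes, DESeq2 called 284 for TGFβ in mock (184 in edgeR), 274 in labelled Nnmt-OE (180) and 27 for the construct over both treatments (9), where no filter gave 19. With no filter 13 were called for the construct without TGFβ (5). With only the groups compared, TGFβ called 92 in mock and 351 in labelled Nnmt-OE; this setting has no form for the interaction or the means over both levels. Under the block, Ier3 without TGFβ and Jun over both treatments lost the construct call, and Ier5 the TGFβ call in mock (edgeR adjusted p = 0.0534, 0.0565 and 0.0646 in that order). Leaving out 1 library gave 98 to 188 genes for TGFβ in mock, 97 to 305 in labelled Nnmt-OE and 473 to 649 over both constructs, and 3 to 6 for the construct without TGFβ, 1 to 3 with TGFβ and 5 to 9 over both treatments, so the shares of all genes called are no firmer than this. Depth limits Dusp2, Dusp4 and Spry4.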
